A study of Mus musculus with 15 samples.

Results

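The genes described here are 10 listed genes of mitochondrial fatty acid oxidation, chosen by name: Cpt1a, Cpt1b, Cpt2, Acadvl, Acadl, Acadm, Hadha, Hadhb, Eci1 and Etfdh. All 10 were found among the 34714 gene symbols of an RNA sequencing table of mouse aorta. The table holds 15 libraries from wild-type mice, 5 in each of 3 groups. AngII + RvE1 mice were infused with angiotensin II at 750 ng per kg per minute and were injected intraperitoneally with resolvin E1, a lipid mediator derived from eicosapentaenoic acid, at 2 µg per kg per day. AngII mice had the same infusion without resolvin E1, and Sham mice were the controls. The sources used here give no strain, age, sex or duration of infusion, and do not state that each library is a different animal, so the p-values reflect variation among libraries, which may be technical.

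Long-chain fatty acids enter mitochondria as carnitine esters. Carnitine palmitoyltransferase 1 in the outer membrane forms the ester, and carnitine palmitoyltransferase 2 in the inner membrane turns it back into the CoA ester. Acyl-CoA dehydrogenases, the trifunctional protein and auxiliary enzymes then shorten the chain step by step, and electrons pass through ETF dehydrogenase to ubiquinone. The pathway is very active in heart and in brown fat, and the thoracic aorta of the mouse is surrounded by perivascular fat of brown type.

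All values are in FPKM, a read abundance scaled to gene length and library depth. That scaling was assumed, since the file names no unit. Differences between groups are log2 differences of FPKM + 1 from a limma model over all 15 libraries, and a gene is called when its p-value, adjusted by the Benjamini-Hochberg method over 12603 tested genes, is under 0.05. Read depth is not known. All 10 genes passed the filter on low values.

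The aortic label was checked against marker genes. The summed FPKM of 9 smooth muscle markers, Acta2 and Myh11 among them, was 5381 to 9680 in AngII + RvE1, 1203 to 3394 in AngII and 1750 to 12194 in Sham libraries. Brown fat markers were abundant as well. Of 11 such genes 10 reached an FPKM of 1 in all 15 libraries, and their sum was 3086 to 8956 in AngII + RvE1, 959 to 9637 in AngII and 2321 to 13252 in Sham. The sum of 10 lymphocyte and general leukocyte markers was 16.9 to 21.1 in AngII + RvE1 and 8.33 to 91.5 in Sham. In AngII it was 1132, 368 and 1638 in libraries 3, 4 and 5, but 24.4 and 18.4 in libraries 1 and 2. AngII libraries 3, 4 and 5 therefore stood apart. Results for the 10 genes and for Slc27a1 are also given without them where that changes the direction or the call. For other genes only counts of called genes are given without them, so their single differences were not checked in this way.

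Promoter sequence was read for 9 of the 10 genes from RefSeq windows on GRCm38.p6 (mm10), which run from 250 bases before to 50 after an annotated start. For 8 of the 9 that start is the 5′ end of the RefSeq gene. For Cpt1a it is an internal start, 975 bases inside the gene, so the Cpt1a stretch lies within the gene and not upstream of it. Stretches of 3 windows are shown, with bases of annotated exons left out. The first was chosen because Hadha and Hadhb encode both subunits of a single enzyme complex and start head to head on chromosome 5, with 272 bases between the RefSeq genes. The Cpt1a stretch was chosen because this gene ran against the other 9 across libraries, and the Acadvl stretch because Acadvl belongs to the 9 and its window also holds the core motif of nuclear receptors. Capitals mark GC boxes (GGGCGG) and that core motif (AGGTCA) on either strand.
Hadha-Hadhb, chr5:30155163-30155247, plus strand: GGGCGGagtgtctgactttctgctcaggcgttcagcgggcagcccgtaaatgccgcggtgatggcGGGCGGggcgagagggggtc
Cpt1a, chr19:3323051-3323284, plus strand: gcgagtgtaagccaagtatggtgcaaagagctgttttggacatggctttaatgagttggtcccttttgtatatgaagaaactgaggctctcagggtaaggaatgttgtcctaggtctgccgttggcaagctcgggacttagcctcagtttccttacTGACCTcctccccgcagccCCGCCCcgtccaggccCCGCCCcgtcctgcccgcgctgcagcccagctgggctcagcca
Acadvl, chr11:70015429-70015678, minus strand: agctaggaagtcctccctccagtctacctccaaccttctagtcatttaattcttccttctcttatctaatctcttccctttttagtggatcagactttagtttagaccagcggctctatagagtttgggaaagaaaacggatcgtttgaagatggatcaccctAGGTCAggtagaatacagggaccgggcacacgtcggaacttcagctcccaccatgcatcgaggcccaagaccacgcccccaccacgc

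The GC box was in 7 of the 9 windows and in 35.7% of all 32851 RefSeq promoter windows. The 2 without it were those of Acadm and Acadvl. The windows of Hadha and Hadhb overlap and share a GC box, so their matches are not separate. The core motif AGGTCA was in 3 of the 9 windows (Acadm, Acadvl and Cpt1a) and in 16.3% of all windows. The direct repeat of the core motif with any 1 base between the copies, searched on both strands, was in 0 of the 9 and in 0.0396% of all. The GC content of the 9 windows ran from 50.7% for Acadvl to 70.3% for Acadl, against a median of 52.7% over all windows. Matches are matches of letters only.

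The levels of the 10 genes, compared per gene length, spread widely. Hadhb led with a median of 746 FPKM and was above the next gene in 15 of 15 libraries. Acadvl, Acadm and Acadl followed at 529, 519 and 480 FPKM. Acadm was above Acadl in 15 of 15 libraries, whereas Acadvl was above Acadm in only 3, so the order of the medians of Acadvl and Acadm does not hold library by library. Hadha had a median of 367 FPKM and Eci1 of 266 FPKM, with Hadha the higher in 13 of 15 libraries. Cpt1b, Cpt2 and Etfdh had medians of 149, 142 and 133 FPKM and changed places between libraries. Cpt1a was the lowest of the 10 in 15 of 15 libraries, with a median of 13.6 FPKM. Of the tested genes, 99.5% had a median below that of Hadhb and 68.0% a median below that of Cpt1a.

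**Figure D1:**
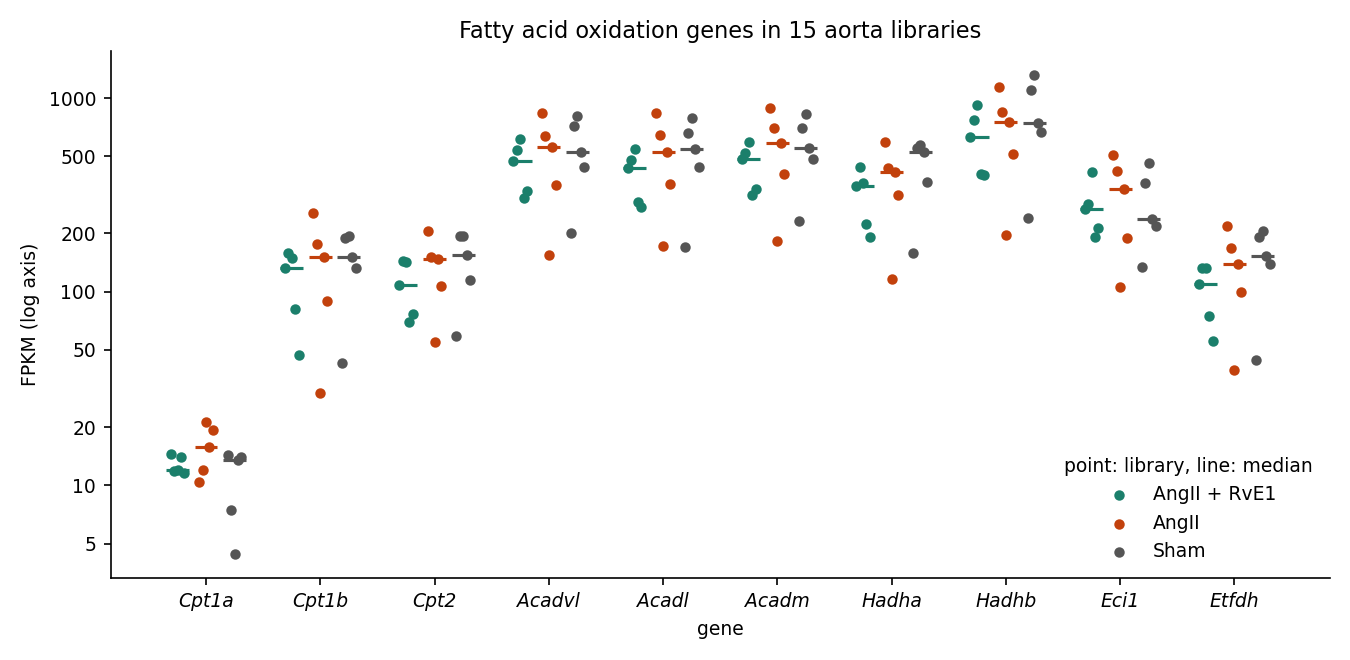
FPKM (log axis) of the 10 genes in every library, by group, with 1 point per library and a line at the group median. The 3 groups overlap for each gene, and Cpt1a, at 4.42 to 21.3 FPKM, lies below the other 9 in every library.

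Entry into mitochondria rests on the carnitine palmitoyltransferases. Cpt1b, on chromosome 15 from 89416405 to 89425862, encodes the form of CPT1 that predominates in muscle and brown fat. It was 132, 158, 149, 81.0 and 47.2 FPKM in AngII + RvE1 libraries 1 to 5, 254, 177, 30.1, 151 and 89.7 FPKM in AngII libraries 1 to 5, and 42.6, 190, 193, 152 and 133 FPKM in Sham libraries 1 to 5. AngII library 3 and Sham library 1 were the 2 lowest, and the highest value, in AngII library 1, was 8.43 times the lowest, the widest span among the 10 genes. The log2 difference was -0.15 for AngII against Sham (95% interval -1.31 to 1.005), -0.13 for AngII + RvE1 against AngII (-1.28 to 1.03) and -0.28 for AngII + RvE1 against Sham (-1.44 to 0.88). RefSeq has the noncoding gene Gm44502 overlapping Cpt1b, so reads in any shared exons may be assigned to either. Gm44502 was listed at 1.17 to 24.7 FPKM.

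Cpt1a, on chromosome 19 from 3322326 to 3385735, encodes the CPT1 form that predominates in liver and is also made in many other cells. It was 14.5, 11.9, 12.0, 14.0 and 11.6 FPKM in AngII + RvE1 libraries 1 to 5, 10.4, 12.0, 21.3, 15.8 and 19.3 FPKM in AngII libraries 1 to 5, and 14.3, 7.44, 4.42, 13.6 and 14.0 FPKM in Sham libraries 1 to 5. The 3 highest values were those of AngII libraries 3, 5 and 4, and the 2 lowest those of Sham libraries 3 and 2. The AngII and Sham groups overlapped. Cpt1a was the gene of the 10 with the smallest p for AngII against Sham, a log2 difference of 0.58 (SE 0.27, 95% interval 0.01 to 1.15, limma unadjusted p = 0.0479), and it was not called (adjusted p = 0.186). Without AngII libraries 3, 4 and 5 its difference was 0.17 (adjusted p = 0.944). Between AngII + RvE1 and AngII the difference was -0.24 (adjusted p = 0.586), and for AngII + RvE1 against Sham 0.34 (adjusted p = 0.920).

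Cpt2, on chromosome 4 from 107903982 to 107923589, encodes the inner membrane transferase that is shared by all tissues. It was 70.0 to 144 FPKM in AngII + RvE1 (median 109), 55.2 to 207 FPKM in AngII (median 148) and 58.8 to 194 FPKM in Sham (median 155). Its span over the 15 libraries, 3.74-fold, was the smallest of the 10. The log2 differences were -0.11 for AngII against Sham, -0.24 with AngII + RvE1 set against AngII and -0.34 with AngII + RvE1 set against Sham, each smaller than the SE of 0.38.

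The acyl-CoA dehydrogenases carry out the initial step of each cycle on chains of different length. Acadvl (chromosome 11 from 70010183 to 70015428) encodes the very long-chain enzyme. It averaged 453 ± 133 FPKM in AngII + RvE1, 507 ± 262 FPKM in AngII and 539 ± 239 FPKM in Sham (SD, n = 5 each). Acadl (chromosome 1 from 66830839 to 66863309), the long-chain enzyme, averaged 406 ± 118, 508 ± 256 and 521 ± 235 FPKM in AngII + RvE1, AngII and Sham. Acadm (chromosome 3 from 153922353 to 153944643), the medium-chain enzyme, averaged 450 ± 119, 553 ± 270 and 560 ± 227 FPKM in the same groups. For each of the 3 genes, the SD within AngII and within Sham was larger than the difference between any 2 group means, and the groups overlapped. Across the 3 comparisons, the log2 differences of these 3 genes ran from -0.24 to -0.01, with SE of 0.41 to 0.44.

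The trifunctional protein carries out the later steps of the cycle on long chains, with the alpha subunit from Hadha and the beta subunit from Hadhb. Hadhb (chromosome 5 from 30155253 to 30184593) was 628, 773, 924, 405 and 400 FPKM in AngII + RvE1 libraries 1 to 5, 1148, 848, 196, 751 and 516 FPKM in AngII libraries 1 to 5, and 241, 1103, 1322, 746 and 666 FPKM in Sham libraries 1 to 5. Hadha (chromosome 5 from 30119423 to 30154980) was 353, 441, 366, 223 and 191 FPKM in AngII + RvE1 libraries 1 to 5, 591, 437, 116, 417 and 316 FPKM in AngII libraries 1 to 5, and 159, 552, 575, 524 and 367 FPKM in Sham libraries 1 to 5. Both subunit genes were lowest in AngII library 3, and within AngII both followed the same order of libraries, 1, 2, 4, 5 and 3. The log2 difference for AngII + RvE1 against AngII was -0.14 for Hadha (95% interval -1.07 to 0.79) and -0.005 for Hadhb (-1.07 to 1.06). Hadha differed by -0.40 (SE 0.44) and Hadhb by -0.25 (SE 0.50) between AngII + RvE1 and Sham.

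Eci1 encodes an enoyl-CoA isomerase that lets unsaturated chains enter the cycle, and Etfdh encodes the ETF dehydrogenase. Eci1 (chromosome 17 from 24426683 to 24439316) averaged 274 ± 87.3 FPKM in AngII + RvE1, 312 ± 165 FPKM in AngII and 284 ± 129 FPKM in Sham (SD, n = 5 each). Etfdh (chromosome 3 from 79603788 to 79628767) averaged 101 ± 34.9, 133 ± 68.3 and 146 ± 63.2 FPKM in the same groups. Etfdh had the largest difference of the 10 in size for AngII + RvE1 against Sham, -0.44 on the log2 scale (SE 0.47, adjusted p = 0.959). RefSeq has the end of Etfdh overlapping Ppid.

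No gene of the 10 was called by limma in any of the 3 comparisons. For AngII against Sham 0 of 10 were called, where 3.17% of all tested genes were, and 1 of 10 had an unadjusted p under 0.05, where 26.2% of all did. For AngII + RvE1 against AngII 0 of 10 were called, where 8.52% of all tested genes were, and 0 of 10 had an unadjusted p under 0.05, where 29% of all did. For AngII + RvE1 against Sham 0 of 10 were called, where 0.0238% of all tested genes were, and 0 of 10 had an unadjusted p under 0.05, where 6.69% of all did. The groups overlapped for all 10 genes in all 3 comparisons, where 3.7%, 11.1% and 1.09% of tested genes did not overlap. The 95% intervals of the 9 genes other than Cpt1a reached from -0.82 or lower to 0.67 or higher for AngII against Sham, so differences of that size in either direction were within the precision of these libraries. AngII enters both of the first 2 comparisons, and Sham enters the first and the third.

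**Figure D2:**
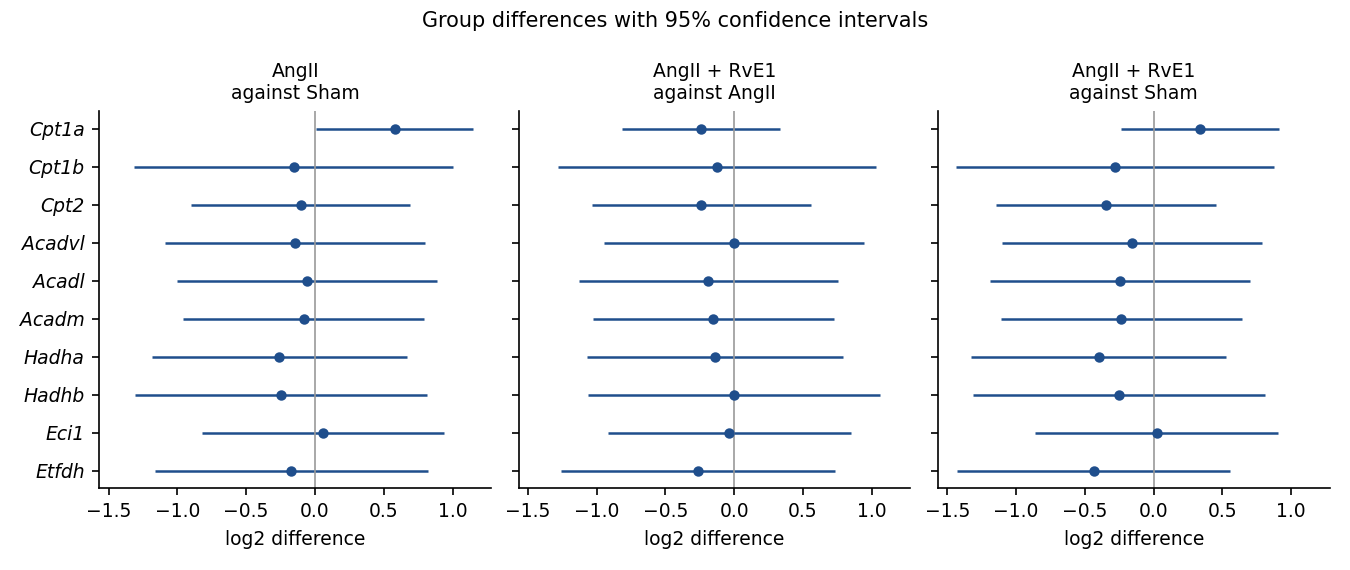
Log2 differences of FPKM + 1 (points) with 95% confidence intervals (lines) for the 10 genes in the 3 comparisons. The interval of Cpt1a for AngII against Sham, 0.01 to 1.15, is the only interval that leaves out 0.

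Rescaling the libraries by their median ratio changed the balance of calls over all genes. AngII against Sham gave 298 higher and 102 lower genes as deposited, and 249 higher and 322 lower genes after rescaling. AngII + RvE1 against AngII gave 531 higher and 543 lower genes as deposited, and 827 higher and 476 lower genes after rescaling. The median log2 difference of the 10 genes was -0.13 for AngII against Sham, against 0.11 over all tested genes. It was -0.15 for AngII + RvE1 against AngII, against -0.11 over all, and -0.25 for AngII + RvE1 against Sham, against 0.01 over all. The sign of the difference between AngII and Sham turned with the libraries that were used. For some genes it turned when 1 library of either group was left out. Sham library 1 held the lowest Sham value of each of the 9 genes other than Cpt1a, and it was kept in the fit that follows. Without AngII libraries 3, 4 and 5, the 8 genes with a value below 0 all had a value above 0, from 0.36 for Hadha to 0.74 for Cpt1b, and none was called (limma adjusted p from 0.829 to 0.915). Eci1 was at 0.83. Without these libraries, in AngII + RvE1 against AngII, the 9 genes other than Cpt1a lay between -1.02 and -0.74, Cpt1a was at 0.17, and none was called. Libraries 3 and 5 held the lowest and the next lowest level of each of these 8 genes within AngII.

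Libraries differed far more than groups did. Each of the 9 genes other than Cpt1a spanned 3.74-fold to 8.43-fold over the 15 libraries, and they did so together. Over the 36 pairs of these 9 genes, Pearson's r across libraries ran from 0.868 to 0.994 and Spearman's rho from 0.850 to 0.989 (n = 15 libraries), given as a description. With group means removed r ran from 0.900 to 0.999. Cpt1a ran the other way, with r from -0.690 to -0.551 and rho from -0.714 to -0.618 against the 9. The mean log2 level of the 9 genes was lowest in AngII library 3 (-1.47 relative to the mean of all libraries), followed by Sham library 1 (-1.19). It was highest in AngII library 1 (0.91) and Sham library 3 (0.83), so AngII and Sham each held a library at either end. AngII + RvE1 libraries lay between, from -0.70 to 0.36.

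**Figure D3:**
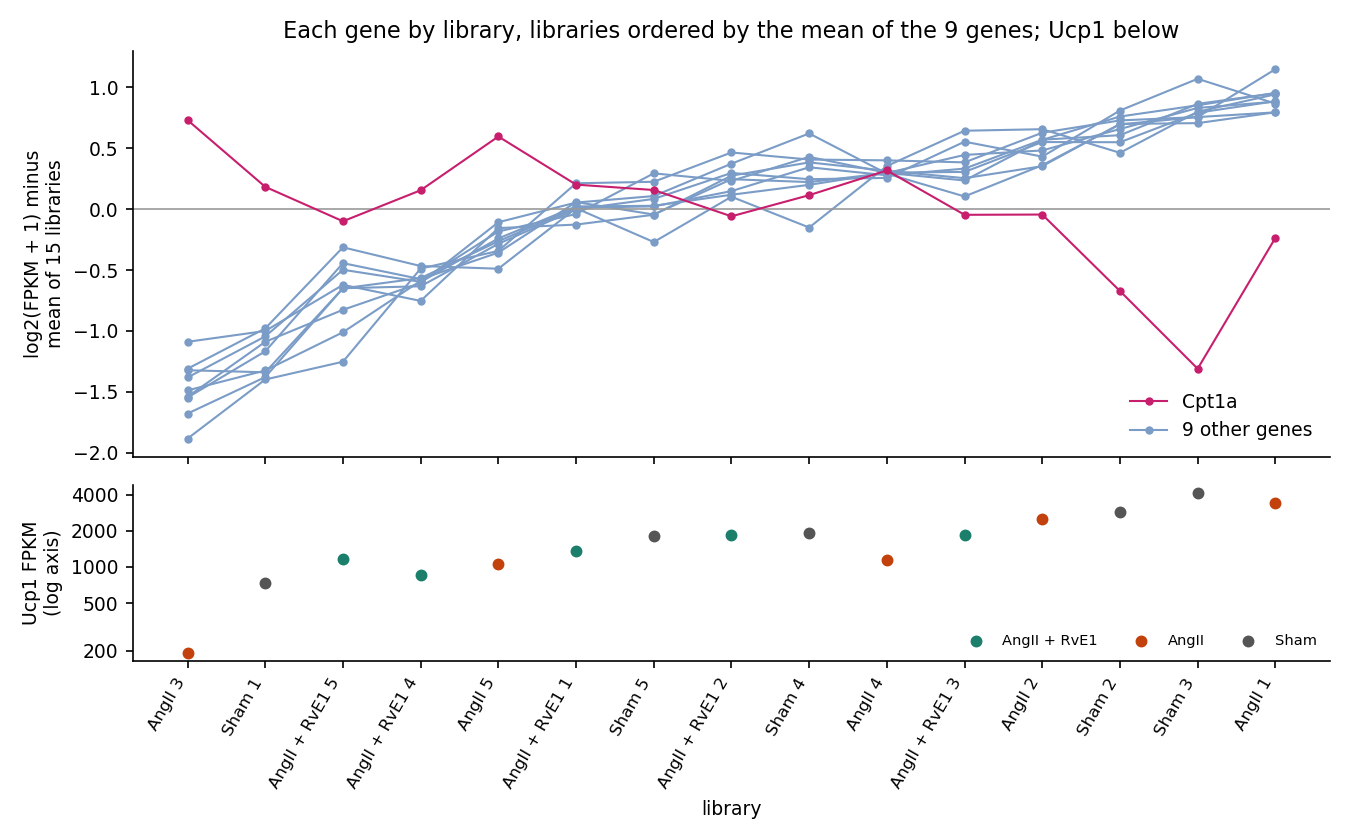
Upper panel, log2(FPKM + 1) of each gene minus its mean over the 15 libraries, with libraries ordered from low to high by the mean of the 9 genes other than Cpt1a. Lower panel, Ucp1 FPKM on a log axis in the same order. The 9 genes rise together from AngII library 3 to AngII library 1, and Ucp1 runs from 192 to 4133 FPKM.

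Brown fat markers moved with the 9 genes. Ucp1, the uncoupling protein of brown fat, was 1355, 1857, 1863, 858 and 1175 FPKM in AngII + RvE1 libraries 1 to 5, 3412, 2496, 192, 1134 and 1057 FPKM in AngII libraries 1 to 5, and 729, 2889, 4133, 1906 and 1827 FPKM in Sham libraries 1 to 5. The 2 lowest Ucp1 values were in AngII library 3 and Sham library 1, the same 2 libraries that held the lowest levels of the 9 genes. Over the 15 libraries, r between log2 Ucp1 and the mean of the 9 genes was 0.920 and rho 0.918, and r was 0.885 without the 2 libraries whose Ucp1 lay farthest from its median. For the summed FPKM of the 11 brown fat genes, of which Fabp3 is also in the uptake list below, r was 0.893 and rho 0.871. Genes with high FPKM such as Ucp1 weigh most in that sum, so it is not separate from the Ucp1 values. The list of 10 adipocyte markers, among them Adipoq, gave r of 0.501 and rho of 0.600, and 10 cardiac muscle markers gave r of 0.055 and rho of -0.054. For the other lists r was -0.244 for smooth muscle, -0.527 for endothelium, -0.478 for macrophage, -0.305 for leukocyte, -0.141 for fibroblast and 0.092 for skeletal muscle markers. Without the 2 libraries farthest from the median of each sum, r was 0.824 for brown fat, 0.511 for adipocyte, 0.332 for cardiac muscle, -0.837 for smooth muscle, -0.486 for endothelium, 0.052 for macrophage, 0.237 for leukocyte, -0.111 for fibroblast and -0.082 for skeletal muscle markers. The values for smooth muscle, macrophage and leukocyte markers thus rested on which libraries were included. Cpt1a had r of -0.769 and rho of -0.811 with Ucp1. These are descriptions without a test, the libraries share 1 normalisation, and the part of brown fat or of the other cell types in the levels was not tested. In whole aorta, fewer cells of a type and less RNA per cell cannot be told apart.

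Ratios within a library show how far the genes kept their proportions. Hadhb over Hadha ran from 1.42 to 2.52 in the 15 libraries, with group medians of 1.82 in AngII + RvE1, 1.80 in AngII and 1.82 in Sham, while Hadhb itself spanned 6.75-fold. Acadm over Acadl stayed within 1.0005 to 1.36, and Acadvl over Acadl within 0.897 to 1.21. Etfdh over Cpt2 ran from 0.717 to 1.21. Cpt1b over Cpt2 ran from 0.546 to 1.23, a span of 2.25-fold, and Eci1 over Hadha from 0.455 to 1.13, a span of 2.49-fold. Cpt1b over Cpt1a had the widest span of the 7 ratios computed. It was 9.14, 13.2, 12.4, 5.79 and 4.09 in AngII + RvE1 libraries 1 to 5, 24.4, 14.7, 1.41, 9.56 and 4.64 in AngII libraries 1 to 5, and 2.98, 25.5, 43.7, 11.2 and 9.53 in Sham libraries 1 to 5. Its highest value, in Sham library 3, was 30.9 times its lowest, in AngII library 3, and the 3 groups overlapped.

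**Figure D4:**
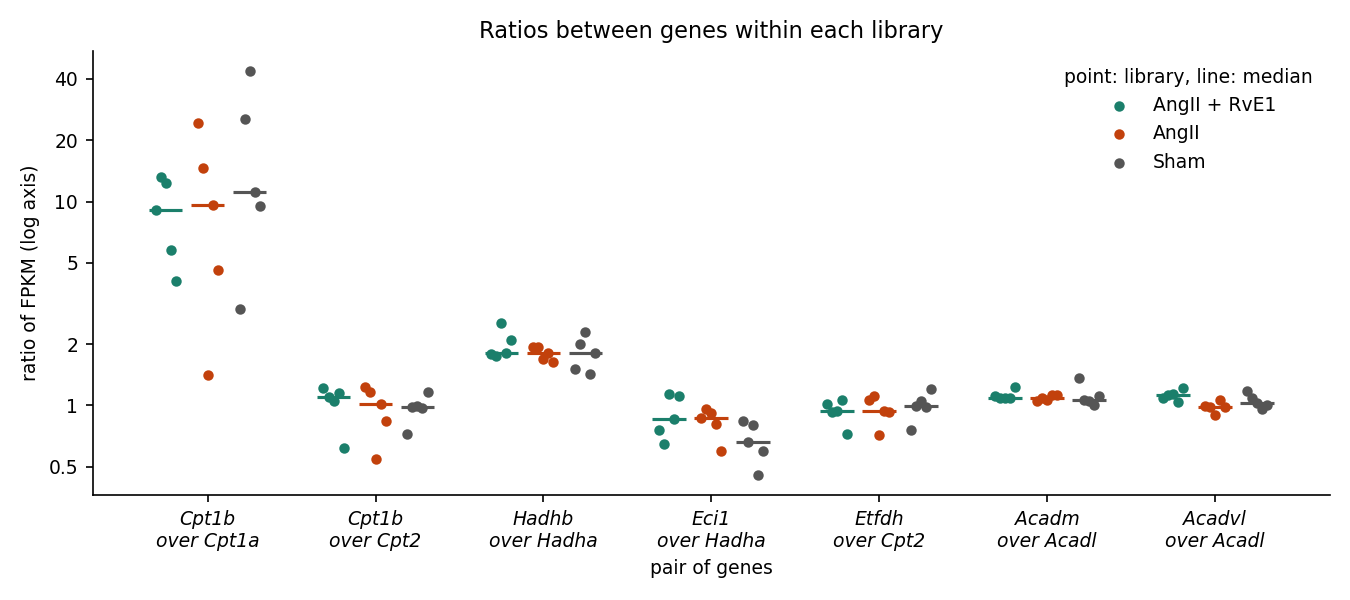
Ratio of the FPKM of 2 genes within each library (log axis), by group, with 1 point per library and a line at the group median. Cpt1b over Cpt1a spreads from 1.41 to 43.7, whereas Acadm over Acadl stays within 1.0005 to 1.36.

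Outside the 10 genes, the patterns most like their standardised mean over the 15 libraries were those of Dlst (r = 0.990, rho = 0.986), Ghitm (0.986, 0.971), Sdha (0.985, 0.961), Pank1 (0.984, 0.989), Idh3b (0.984, 0.968) and Coq9 (0.984, 0.982). Dlst and Idh3b encode subunits of tricarboxylic acid cycle enzymes, Sdha the flavoprotein of succinate dehydrogenase, Pank1 a pantothenate kinase of CoA synthesis, Coq9 a factor of ubiquinone synthesis and Ghitm a mitochondrial inner membrane protein. Dlst was 153 to 281 FPKM in AngII + RvE1, 89.4 to 392 FPKM in AngII and 110 to 363 FPKM in Sham, which overlap.

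The rest of the pathway was read from 4 lists. Of 16 other mitochondrial oxidation enzymes, all tested, 0 were called in any comparison. Of all tested genes 3.17% were called for AngII against Sham, 8.52% for AngII + RvE1 against AngII and 0.0238% for AngII + RvE1 against Sham. An unadjusted p under 0.05 was reached by 0 of the 16 in any comparison. Over all tested genes that share was 26.2% for AngII against Sham, 29% with AngII + RvE1 set against AngII and 6.69% with AngII + RvE1 set against Sham. The median log2 difference of the 16 was 0.03 for AngII against Sham, -0.07 for AngII + RvE1 against AngII and -0.07 for AngII + RvE1 against Sham. The smallest p for AngII against Sham was that of Acad10, an acyl-CoA dehydrogenase family member, with a difference of 0.21 (limma adjusted p = 0.599), and for the other 2 comparisons that of Acad9, which also assembles respiratory complex I, with -0.27 (0.385) and -0.28 (0.890).

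Among the lists, only that of uptake, activation and the carnitine shuttle held a called gene. A call of 1 gene is not a result about that list. Of 14 genes of uptake, activation and the carnitine shuttle 13 were tested, with an unadjusted p under 0.05 in 2 for AngII against Sham, 4 for AngII + RvE1 against AngII and 2 for AngII + RvE1 against Sham, beside 26.2%, 29% and 6.69% of all tested genes. Of these 13, 1 gene, Slc27a1, was called higher in AngII than in Sham and lower in AngII + RvE1 than in AngII. In these 2 comparisons 3.17% and 8.52% of all tested genes were called in either direction. For AngII + RvE1 against Sham 0 of the 13 were called, where 0.0238% of all were. Slc27a1 (chromosome 8 from 71568728 to 71587307) encodes FATP1, a transport protein that brings long-chain fatty acids into cells. It was 43.1, 63.7, 42.9, 31.0 and 28.0 FPKM in AngII + RvE1 libraries 1 to 5, 102, 74.5, 112, 165 and 111 FPKM in AngII libraries 1 to 5, and 42.1, 47.2, 33.9, 53.9 and 34.2 FPKM in Sham libraries 1 to 5. Every AngII library was above every library of the other 2 groups, a separation that 3.7% of tested genes showed against Sham and 11.1% showed between AngII + RvE1 and AngII. The log2 difference was 1.37 for AngII against Sham (SE 0.23, limma adjusted p = 0.00902) and -1.43 for AngII + RvE1 against AngII (SE 0.23, adjusted p = 0.0135). AngII libraries enter both, so the opposite signs are not independent. AngII + RvE1 and Sham overlapped (-0.05, adjusted p = 0.994).

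AngII libraries 1 and 2, which had few leukocyte markers, held Slc27a1 at 102 and 74.5 FPKM, against a highest Sham value of 53.9 FPKM. The summed FPKM of 6 macrophage markers was 70.6 to 88.7 in AngII + RvE1 and 55.7 to 81.2 in Sham. In AngII libraries 1 to 5 it was 73.4, 145, 586, 182 and 278, so library 1 lay within the other groups and library 2 above them. Of the 6 macrophage markers 2 were called higher in AngII than in Sham, where 3.17% of all tested genes were called in either direction. Against Sham, 1 of 10 adipocyte markers was also called higher and 1 of 9 smooth muscle markers lower. Between AngII + RvE1 and AngII, 8.52% of all tested genes were called. There 4 of 6 macrophage, 3 of 10 adipocyte, 2 of 9 leukocyte and 1 of 7 endothelium markers were called lower, and 8 of 9 smooth muscle markers higher. With AngII libraries 3, 4 and 5 left out the Slc27a1 difference was 1.05 against Sham (adjusted p = 0.298). It was -1.10 for AngII + RvE1 against AngII (adjusted p = 0.284), and the Slc27a1 calls were lost. The summed FPKM of 10 adipocyte markers was 10377 to 18127 in AngII + RvE1, 19298 to 26037 in AngII and 11427 to 23844 in Sham, with r of 0.704 and rho of 0.650 to log2 Slc27a1 over the 15 libraries. The smooth muscle sum gave r of -0.735 and rho of -0.718, the leukocyte sum r of 0.688 and rho of 0.486, and the macrophage sum r of 0.696 and rho of 0.525. The r for cardiac muscle, endothelium, skeletal muscle, brown fat and fibroblast markers was -0.491, 0.333, 0.286, -0.262 and 0.023. Without the 2 libraries farthest from the median of each sum, r was 0.626 for adipocyte, -0.626 for smooth muscle, 0.570 for leukocyte and 0.658 for macrophage markers. For cardiac muscle, endothelium, skeletal muscle, brown fat and fibroblast markers it was then -0.438, 0.423, -0.415, 0.117 and -0.212. The part of these cell types in the Slc27a1 values was not tested. The other genes of that list included Acsl3, an acyl-CoA synthetase, which had the smallest p for AngII + RvE1 against Sham without passing (-0.70, adjusted p = 0.664). Slc25a20, the carnitine carrier that works between CPT1 and CPT2, was picked for its role after its values were seen. It was 85.5 to 174 FPKM in AngII + RvE1, 43.9 to 233 FPKM in AngII and 67.5 to 279 FPKM in Sham, and these overlap.

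Of 13 regulators 12 were tested and 0 were called in any comparison. Of all tested genes 3.17% were called for AngII against Sham, 8.52% for AngII + RvE1 against AngII and 0.0238% for AngII + RvE1 against Sham. Rxra, the partner receptor of the PPARs, had the smallest p for AngII against Sham (0.44, limma adjusted p = 0.108) and for AngII + RvE1 against AngII (-0.48, adjusted p = 0.0708). Ppargc1a, a coactivator of mitochondrial gene expression, had the smallest p for AngII + RvE1 against Sham, at 2.75 ± 2.53 FPKM in AngII + RvE1 and 4.64 ± 2.08 FPKM in Sham (SD, n = 5 each, log2 difference -0.72, limma adjusted p = 0.844). The count at an unadjusted p under 0.05 was 2 of 12 for AngII against Sham, 2 of 12 with AngII + RvE1 set against AngII and 0 of 12 with it set against Sham, beside 26.2%, 29% and 6.69% of all tested genes. Ppara, the fatty acid receptor that drives oxidation genes in liver, was named after its values were seen. It was 10.2 to 30.2 FPKM in AngII + RvE1, 5.14 to 36.9 FPKM in AngII and 7.62 to 22.9 FPKM in Sham.

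Peroxisomes shorten very long chains by a separate set of enzymes. Of 15 such genes 14 were tested and 0 were called in any comparison. Of all tested genes 3.17% were called for AngII against Sham, 8.52% for AngII + RvE1 against AngII and 0.0238% for AngII + RvE1 against Sham. Ehhadh, the peroxisomal bifunctional enzyme, was 9.78, 20.2, 19.3, 9.76 and 6.71 FPKM in AngII + RvE1 libraries 1 to 5, 35.6, 30.2, 10.2, 38.0 and 34.9 FPKM in AngII libraries 1 to 5, and 9.66, 19.4, 12.0, 15.4 and 15.4 FPKM in Sham libraries 1 to 5. AngII library 3, at 10.2 FPKM, lay within the range of each of the other 2 groups, so AngII overlapped both. Its log2 difference was 0.91 for AngII against Sham (SE 0.35, limma adjusted p = 0.123) and -1.11 for AngII + RvE1 against AngII (SE 0.35, adjusted p = 0.0604), which did not pass. Abcd2, a peroxisomal transporter of fatty acyl-CoA, had the smallest p of the list for AngII + RvE1 against AngII (-0.92, adjusted p = 0.0540), and Pex11a, a peroxisome division factor, for AngII + RvE1 against Sham (-0.45, adjusted p = 0.840). The count at an unadjusted p under 0.05 was 2 of 14 for AngII against Sham, 4 of 14 with AngII + RvE1 set against AngII and 0 of 14 with it set against Sham, beside 26.2%, 29% and 6.69% of all tested genes.

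**Figure D5:**
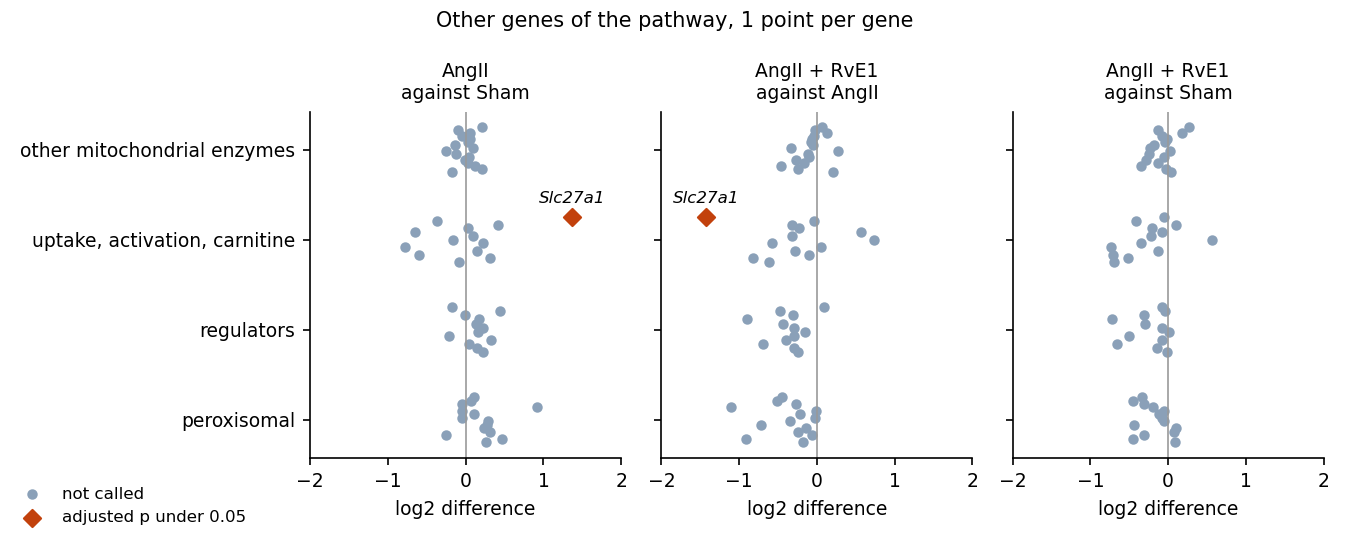
Log2 differences of the tested genes in 4 lists of the wider pathway for the 3 comparisons, 1 point per gene, with diamonds for genes called at an adjusted p under 0.05. Slc27a1 is called at 1.37 for AngII against Sham and at -1.43 for AngII + RvE1 against AngII.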

How the data were processed

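The 15 mouse aorta RNA libraries were prepared with a SMARTER mRNA kit and sequenced, per the labels' protocols. The deposited table gives 1 value per gene and library, treated as FPKM, which the file does not state. Values have decimals and library sums are unequal. The build is mm10, per the submitters' processing notes. The sources used here name no aligner or quantifier. Depth is unknown, so no counting interval is given. Of 34714 genes, 12603 reached 1 FPKM in 5 or more libraries and were fitted as log2(FPKM + 1) with limma 3.58.1 in R 4.3.3 (mean trend, 1 mean per group), two-sided, with Benjamini-Hochberg adjustment at 0.05. The added 1 pulls differences of low genes toward 0. The procedure was tested on simulated data. The rule named the 10 genes, the called genes of each list or the smallest p, and the 6 most similar patterns. The members and lists were chosen with earlier results of these data known. Alternatives were another pseudocount, 2 other filters, 2-group fits, a replicate block, rescaling, weights, no trend and libraries left out. Promoters and coordinates are from RefSeq GRCm38.p6, and exons from GENCODE M21.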

Additional observations from a re-analysis of the deposited data

How the results depend on the processing

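None of the 10 genes was called in any of 24 alternatives in 3 comparisons. These gave 720 results, counted per gene and not per fit. Of them 68, in 19 of 30 pairs of gene and comparison, had the other sign. The counts over all genes, 400 for AngII against Sham, 1074 for AngII + RvE1 against AngII and 3 for AngII + RvE1 against Sham, moved more. Without a filter they were 151, 405 and 1, with array weights 2821, 4469 and 17, and without AngII libraries 3, 4 and 5 they were 22, 6 and 5. With only the groups compared, 37 were called for AngII against Sham and 1 for AngII + RvE1 against Sham. Leaving out 1 library gave 76 (without AngII library 4) to 1719 (without AngII library 2), 98 (without AngII library 5) to 2035 (without AngII library 2), and 1 to 8. The cause was not tested.

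With the replicate number as a block, 109, 433 and 1 genes were called. Deviations of same-numbered libraries correlated from -0.414 to 0.102 for AngII and Sham, and from -0.340 to 0.032 for AngII + RvE1 and AngII. For AngII + RvE1 and Sham they correlated from 0.024 to 0.521. Libraries of different number were not compared, so these values cannot decide whether the numbers pair libraries. No pairing was assumed in the main fit.

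Of the wider pathway, the count of 1 for AngII against Sham was 6 with array weights and 0 without AngII libraries 3, 4 and 5, and 1 to 2 with 1 library left out. The count of 1 for AngII + RvE1 against AngII was 2 with only those groups, 2 after rescaling, 19 with array weights, 0 without AngII libraries 3, 4 and 5, and 1 to 3 with 1 library left out.

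Signs turned for AngII against Sham after rescaling for Eci1 (-0.0906), and with array weights for Cpt1b (0.0237), Acadvl (0.0419), Acadl (0.0235) and Acadm (0.0785). They turned without AngII libraries 3, 4 and 5 for Cpt1b (0.74), Cpt2 (0.43), Acadvl (0.58), Acadl (0.66), Acadm (0.61), Hadha (0.36), Hadhb (0.48) and Etfdh (0.56). For AngII + RvE1 against AngII they turned after rescaling for Acadvl (0.10), Hadhb (0.10) and Eci1 (0.0685), and without AngII libraries 3, 4 and 5 for Cpt1a (0.17). For AngII + RvE1 against Sham, Eci1 turned after rescaling (-0.0221).

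With 1 library left out, the log2 differences whose sign turned ran as follows for AngII against Sham, in order of the pathway: Cpt1b -0.54 to 0.31, Cpt2 -0.39 to 0.18, Acadvl -0.47 to 0.23, Acadl -0.42 to 0.28, Acadm -0.37 to 0.27, Hadha -0.59 to 0.12, Hadhb -0.63 to 0.15, Etfdh -0.55 to 0.21 and Eci1 -0.18 to 0.39. In AngII + RvE1 against AngII they were Cpt1b -0.59 to 0.16, Acadvl -0.38 to 0.23, Acadl -0.53 to 0.0398, Acadm -0.50 to 0.0632, Hadha -0.52 to 0.0684, Hadhb -0.40 to 0.23 and Eci1 -0.37 to 0.19. In AngII + RvE1 against Sham they were Acadvl -0.47 to 0.0290, Eci1 -0.22 to 0.23 and Slc27a1 -0.22 to 0.0701.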
